A study of Mus musculus with 2 samples.

Results

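Cultured mouse hematopoietic stem cells were searched for cells that carried transcripts of Cpa3 without those of the neutrophil-monocyte granule genes. A cell entered the set where its deposited natural log value of Cpa3 was 1.0 or more and its values of Mpo, Elane and Ctsg were 0, and the set was proposed under the working name of mast or basophil-primed cells. Of 18560 cells in both libraries, 254 met this rule, 170 of 8708 in the vehicle library and 84 of 9852 in the DFO library. The cells were thus selected on the measured values of these 4 genes, whose levels are given below only as a description.

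The cells came from wildtype C57/B6 mice aged 6 to 8 weeks, from the marrow of 8 mice that was pooled. Stem cells were sorted as Lin-, Sca-1+, c-Kit+, CD150+ and CD48- and cultured in Myelocult M5300 with stem cell factor at 100 ng/ml and thrombopoietin at 50 ng/ml. For 48 h 1 culture received 10 µM deferoxamine (DFO), which binds iron, and the other sterile water (vehicle), and 20000 cells of each were loaded for droplet sequencing of transcript 3′ ends. That both libraries came from 1 sort is not stated for each library, the mice were pooled before culture, and with 1 library per group no difference below has a replicate check or a p-value.

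Mast cells and basophils arise from marrow progenitors that use the transcription factors GATA2 and GATA1, and both lineages display the high-affinity IgE receptor and store histamine and proteases in granules. Cpa3 encodes carboxypeptidase A3, a protease of mast cell granules whose transcript is also found in basophils and in some early progenitors. Stem cell factor is the ligand of KIT, which mast cells keep while most other blood lineages lose it. The questions put to the data were which other transcripts accompanied Cpa3 in these cells, and whether the cells differed between DFO and vehicle.

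The Cpa3 gene lies on chromosome 3 at 20215620 to 20242181, minus strand (mm10, GENCODE M21). The 250 bases before its transcription start, and those of Dpp4 and Slc18a2, genes that were also high in the set, are printed because each holds the core letters of the site that GATA factors bind, GATAA on either strand (TTATC where it lies on the other strand), here in capitals. The sequences are from RefSeq (GRCm38.p6), chr3:20242182-20242431 (minus strand), chr2:62412232-62412481 (minus strand) and chr19:59260628-59260877 (plus strand), and the match begins 45, 31 and 230 bases before the start.
Cpa3: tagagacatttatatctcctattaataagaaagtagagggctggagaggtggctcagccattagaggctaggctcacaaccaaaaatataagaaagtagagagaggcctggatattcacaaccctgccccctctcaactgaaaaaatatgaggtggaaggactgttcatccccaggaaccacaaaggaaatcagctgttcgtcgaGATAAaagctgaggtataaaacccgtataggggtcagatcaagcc
Dpp4: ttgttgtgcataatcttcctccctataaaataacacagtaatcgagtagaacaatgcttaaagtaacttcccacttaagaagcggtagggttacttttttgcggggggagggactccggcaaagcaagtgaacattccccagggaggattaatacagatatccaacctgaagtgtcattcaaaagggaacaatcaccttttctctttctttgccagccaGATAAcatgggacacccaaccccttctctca
Slc18a2: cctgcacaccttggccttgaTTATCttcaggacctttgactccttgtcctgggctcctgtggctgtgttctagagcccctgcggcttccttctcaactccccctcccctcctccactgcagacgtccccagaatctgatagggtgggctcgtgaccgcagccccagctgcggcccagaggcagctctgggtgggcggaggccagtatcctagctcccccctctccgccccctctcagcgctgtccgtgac
Of the 21 genes found higher in the set below, 16 had a RefSeq window, and 6 of these (37.5%) held the motif in those 250 bases. Of the 8 lower genes 4 had a window and 0 held it, against 751 of 4456 compared genes (16.9%) and 6883 of 27025 RefSeq genes (25.5%). Counted by window rather than by gene, 22.6% of all 32851 windows held it. The motif was chosen after the gene lists had been seen, a gene with several windows counted once if any held it, and a match of letters shows no binding.

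The set was small and sparse in its defining transcript. It made up 1.95% (exact 95% Clopper-Pearson interval 1.67 to 2.27) of the vehicle library and 0.853% (0.681 to 1.05) of the DFO library. The DFO share was 0.437 times the vehicle share, with an exact interval of 0.332 to 0.570. All intervals cover counting error only, not the spread between cultures. These intervals of the 2 libraries did not overlap, with DFO the lower. Among cells called female from Xist and Y-linked molecules the ratio was 0.423 (36 of 5251 DFO and 77 of 4751 vehicle cells). Among those called male it was 0.491 (40 of 3266 DFO and 69 of 2767 vehicle cells).

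Cpa3 was present at 489 molecules in the 170 vehicle cells and 205 molecules in the 84 DFO cells, or 136.8 and 119.1 molecules per 1e6 molecules summed (CPM). These were 43.4% and 29.9% of all Cpa3 molecules in each library, so most Cpa3 molecules lay in other cells. Of the vehicle cells 35 held 1 molecule, 62 held 2, 54 held 3 to 4, 14 held 5 to 9 and 5 held 10 or more, with a highest value of 15. Of the DFO cells 22 held 1 molecule, 36 held 2, 18 held 3 to 4 and 8 held 5 to 9, with a highest value of 9. The cells just inside the limit had natural log values of 1.002 in vehicle and 1.010 in DFO, and those just outside 0.998 and 0.999.

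The limit depends on depth: 1 molecule reached it in cells of up to 15950 molecules, 2 molecules in cells of up to 31901 and 3 in cells of up to 47852. The median depth of the set was 21114 molecules per cell in vehicle and 19273 in DFO, below the 27915 and 27012 of Cpa3-zero cells. Among cells of 10000 to 20000 molecules the set held 4.96% of vehicle and 2.88% of DFO cells. Among cells of 20000 to 30000 it held 2.16% and 0.733%, and among those of 30000 to 40000 it held 0.894% and 0.254%. In every one of the 5 depth ranges the DFO share was lower, although the intervals overlapped below 10000 molecules and in both ranges above 30000. The ratio moved with the way depth was handled: it was 0.592 (interval 0.489 to 0.714) when every cell was thinned to 10000 molecules before the rule was applied, which found 188 DFO and 282 vehicle cells.

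**Figure D1:**
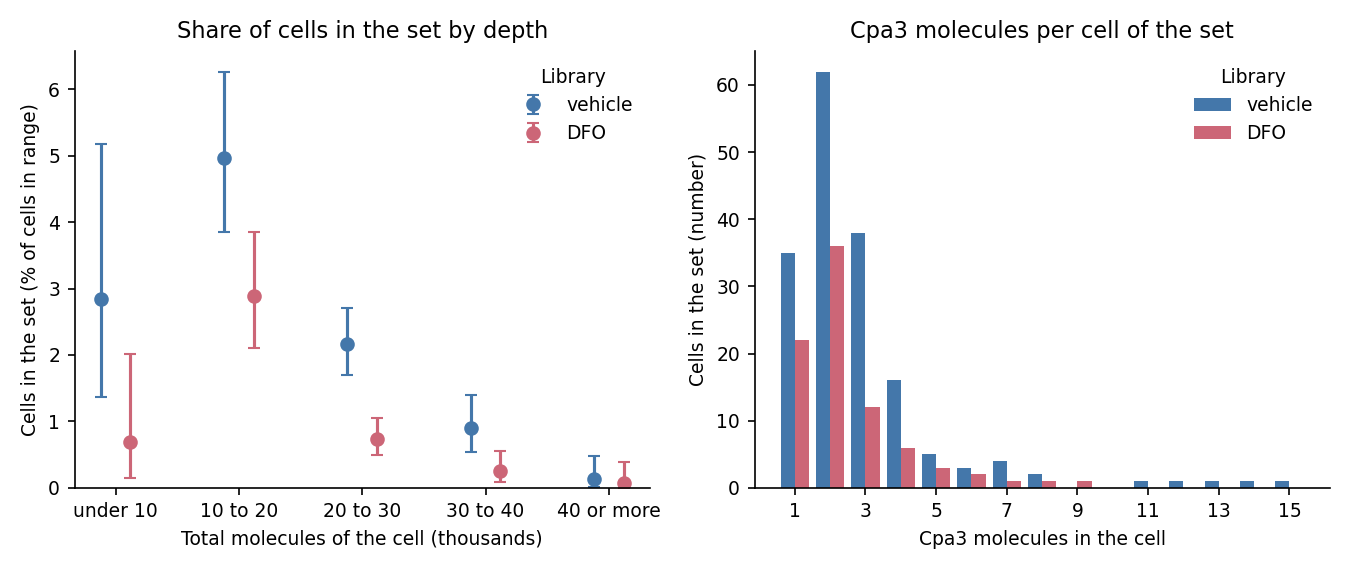
Left, the share of cells in the set (%, vertical axis) by depth range (total molecules of the cell), for vehicle (blue) and DFO (red), with exact 95% Clopper-Pearson bars. Right, the number of cells in the set by their Cpa3 molecules. The DFO points lie below the vehicle points in all 5 ranges, and 1 or 2 molecules is the usual Cpa3 content in both libraries.

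Cpa3 was not confined to the set. Cells with Mpo, Elane or Ctsg carried it at 14.1 CPM under vehicle and 8.75 CPM in DFO, above the 4.32 and 2.41 CPM of all cells. A Cpa3 value of 1.0 or more was also found in 31 vehicle and 16 DFO cells that failed the condition on those 3 genes. Cells with very high Pf4 (natural log value 4.5 or more), a platelet factor of megakaryocytes taken as cells that should lack Cpa3, had it in 2.49% of vehicle and 3.38% of DFO cells, at median depths of 35534 and 33727 molecules. Across all cells it was 7.60% and 4.85%, and after thinning to 10000 molecules 3.77% and 2.26% against 0.775% and 0.971% in the Pf4-high cells, whose share is read as background. The thinned background was 7 of 903 vehicle cells (interval 0.312 to 1.59) and 3 of 309 DFO cells (0.201 to 2.81). In DFO this interval covered the 2.26% of all cells, and the unthinned one (1.70 to 5.98) covered the 4.85%. The limit of 1.0 itself was reached by 7 of 925 vehicle (0.757%) and 1 of 325 DFO (0.308%) Pf4-high cells. Across all cells it was reached by 2.31% and 1.02%, here without the condition on Mpo, Elane and Ctsg.

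Markers of mature mast cells and basophils were close to 0, so the cells are called Cpa3 cells here rather than by the working name. Whether they were primed towards these lineages was not tested. Of 15 markers listed for these lineages 11 were measured. Of the 10 other than Cpa3, 7 had a higher level in the Cpa3 cells than in Cpa3-zero cells of both libraries with intervals of the fold above 1 (Gata2, Il1rl1, Gzmb, Cyp11a1, Hdc, Cd200r3 and Ms4a2). Only 1 of these, Gata2, reached 20 CPM in both, and it was also seen in 87.1% and 84.4% of Cpa3-zero cells. In DFO, Ms4a2 was seen in 3 and Cd200r3 in 2 of the 84 cells. The share of all genes that meet the same criterion was not taken, so the count of 7 has no background beside it. Cma1, the mast cell chymase, gave 1 molecule in vehicle and 0 in DFO. Mcpt8, a basophil protease, gave 0 and 1, and Fcer1a, the ligand-binding chain of the IgE receptor, gave 1 and 0. Seen in 0 cells, a gene may still give a molecule in up to 1.76% of the 170 and 3.57% of the 84 cells (3 cells of each total), and this limits cells with a molecule, not cells that express the gene.

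The Cpa3-zero cells used for comparison met the same condition on Mpo, Elane and Ctsg and numbered 7670 in vehicle and 8955 in DFO. Against them, Il1rl1, the receptor for interleukin-33, stood at 8.11 CPM (exact 95% Poisson interval 5.43 to 11.7) versus 0.891 CPM under vehicle and at 11.04 CPM (6.65 to 17.2) versus 0.901 CPM in DFO. It was seen in 18 vehicle cells (10.6%) and 8 DFO cells (9.52%), against 2.13% and 2.03% of Cpa3-zero cells. Ms4a2, the beta chain of the IgE receptor, had 18 molecules in 9 vehicle cells and 3 molecules in 3 DFO cells, which is 17.6 times (9.81 to 29.9) and 7.45 times (1.49 to 22.8) the Cpa3-zero level. Hdc, the enzyme that makes histamine, had 8 molecules in 5 vehicle cells and 5 molecules in 2 DFO cells, with ratios of 23.4 (9.01 to 54.6) and 33.9 (10.0 to 91.6). These folds were large and their levels very low, and both libraries had the same direction. The molecules were concentrated in few cells, which the intervals do not take into account. In vehicle and DFO, the cell with the most molecules held 17.2% and 26.3% of those of Il1rl1. For Ms4a2 these shares were 27.8% and 33.3%, and for Hdc 37.5% and 60%.

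Gzmb, a granule protease, was at 12.03 CPM in vehicle Cpa3 cells against 4.09 CPM, and at 12.8 CPM in DFO Cpa3 cells against 2.88 CPM. Cyp11a1, a steroid-synthesis enzyme also known from mast cells and basophils, was at 14.0 against 5.19 CPM and at 15.7 against 6.04 CPM. Siglecf, an eosinophil marker, was at 9.51 against 1.89 CPM under vehicle and 12.2 against 1.25 CPM in DFO, while Il5ra, the eosinophil growth factor receptor, had 0 molecules in the vehicle and 1 in the DFO Cpa3 cells. A molecule of at least 1 of 9 low markers (Ms4a2, Il1rl1, Hdc, Cyp11a1, Gzmb, Mcpt8, Cma1, Fcer1a and Cd200r3) was seen in 40.6% of vehicle Cpa3 cells against 18.7% of Cpa3-zero cells, and in 36.9% against 17.9% in DFO. At least 2 of the 9 were seen in 13.5% against 1.96%, and in 11.9% against 1.86%. With cells thinned to 10000 molecules, at least 1 was seen in 25.6% against 9.07% in vehicle and in 29.6% against 8.79% in DFO. Most Cpa3 cells of either library therefore held none of the 9, and 0 held 4 or more.

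**Figure D2:**
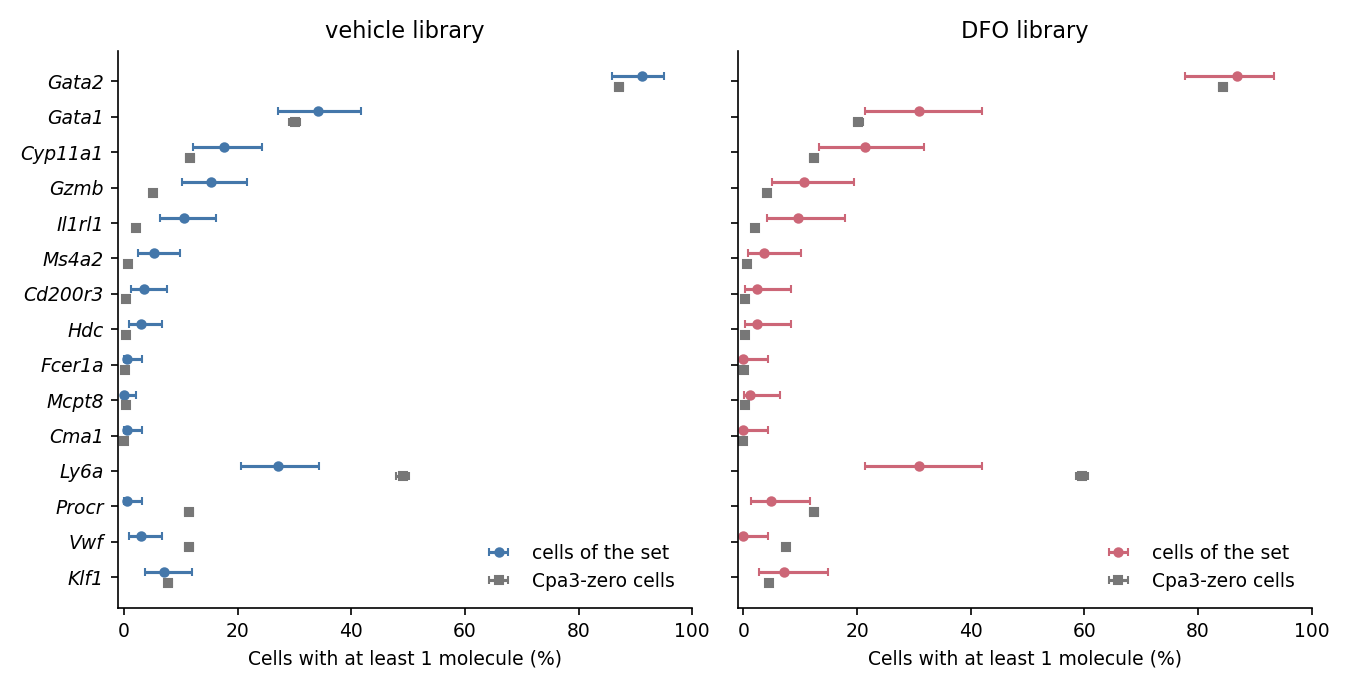
Share of cells with at least 1 molecule of each gene (%), in the vehicle (left) and DFO (right) library, for cells of the set (circles) and Cpa3-zero cells (squares), with exact 95% Clopper-Pearson bars. Il1rl1, Gzmb and Ms4a2 are more often seen in the set in vehicle, the IgE receptor chain Fcer1a and the proteases Cma1 and Mcpt8 are near 0 everywhere, and Ly6a is less often seen in the set in both libraries.

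Across the transcriptome the Cpa3 cells differed from Cpa3-zero cells in a short list of genes. Molecules were summed over cells, and a gene was called where log2 of (CPM + 5) differed by 1 or more (2-fold) in the same direction in both libraries, among 5576 genes at 20 CPM or more. Of these, 21 (0.377%) were higher and 8 (0.143%) lower in the Cpa3 cells, 29 (0.52%) in all. The median over all compared genes was -0.06 in vehicle and -0.04 in DFO. The Cpa3 cells were also shallower than the Cpa3-zero cells, and when the latter were reweighted to the depth of the former, 14 of the 21 higher and 8 of the 8 lower genes were still called. Sex was not matched: 40.6% of vehicle and 47.6% of DFO Cpa3 cells were called male, against 32.1% and 33.2% of Cpa3-zero cells. Called female were 45.3% and 42.9% against 54.5% and 53.3%. The part of sex in the gene differences was not tested.

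Scin, which encodes the actin-severing protein scinderin, stood at 57.3 CPM (interval 49.8 to 65.8) in vehicle Cpa3 cells against 12.1 CPM, and at 39.5 CPM (30.7 to 50.1) in DFO Cpa3 cells against 8.08 CPM. Its log2 differences were 1.86 and 1.77, and molecules came from 45.3% and 38.1% of the cells. Plac8, a gene of early myeloid progenitors, stood at 941 CPM against 286 CPM under vehicle and at 1008 CPM against 317 CPM in DFO, log2 differences of 1.70 and 1.65. Both genes were higher in the Cpa3 cells of each library and their differences were past 2-fold under each of 12 settings tried, but at a minimum of 50 CPM Scin, at 39.5 CPM in DFO, is no longer compared.

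Several of the named higher genes encode surface proteins or transporters, a grouping made after their values were seen, and not tested. Dpp4, a cell-surface peptidase, was at 29.9 against 7.41 CPM under vehicle and 32.5 against 7.28 CPM in DFO. Slc28a2, a purine nucleoside transporter, was at 54.8 against 16.9 CPM and at 51.1 against 11.4 CPM. Slc7a8, an amino acid transporter, was at 49.5 against 18.1 CPM and at 59.9 against 20.3 CPM. Slc18a2, which loads monoamines such as histamine and serotonin into granules and is the 1 called gene of the granule and mediator list, was at 82.5 against 32.4 CPM and at 90.1 against 28.5 CPM. Its vehicle log2 difference of 1.23 became 0.94 with the comparison cells reweighted for depth, which ended that call. Cd52 and Mdga1, both lipid-anchored surface proteins, had log2 differences of 1.39 and 1.32 in vehicle and 1.75 and 1.39 in DFO. Pdgfrb, the PDGF receptor beta, was at 23.5 against 5.90 CPM under vehicle and at 23.2 against 5.16 CPM in DFO.

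The remaining named genes have varied functions. Nkg7, a membrane protein of cytotoxic granules, was at 239 against 93.8 CPM under vehicle and at 189 against 62.2 CPM in DFO. Rnase6, a secreted ribonuclease, had log2 differences of 1.44 and 1.41, and Fam46a, a noncanonical poly(A) polymerase, 1.49 and 1.70. Tespa1, an adaptor in lymphocyte receptor signalling, had 1.39 and 1.22, and Fam117a 1.23 and 1.41. Apoe, a lipoprotein, was at 89.5 against 21.2 CPM in vehicle but at 42.4 against 15.4 CPM in DFO. The call of Apoe ended with depth reweighting, at 0.75 in DFO, and so did that of Fam117a, at 0.85 in vehicle. Called genes that the naming rule left out were 4930519L02Rik, Emid1, Fgf3, Ms4a3, Sh3kbp1 and Tyrobp, with log2 differences from 1.04 (Fgf3 in vehicle) to 1.503 (Emid1 in vehicle).

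The 8 lower genes were Enah, Tpm4, Csrp2, Socs2, Ly6a, Cox4i2, Bex4 and Ryk. Enah, a promoter of actin filament growth, was at 5.87 CPM in vehicle Cpa3 cells against 30.4 CPM, and at 7.55 against 29.4 CPM in DFO. Tpm4, a tropomyosin, was at 14.3 against 39.9 CPM and at 6.39 against 24.5 CPM, and Csrp2, a LIM-domain protein, at 28.5 against 68.4 CPM and at 31.4 against 73.4 CPM. Socs2, a feedback inhibitor of cytokine receptors, was at 16.8 against 45.5 CPM and at 18.01 against 54.4 CPM. Ly6a, which encodes the Sca-1 antigen used in the sort, was at 21.0 against 90.2 CPM under vehicle and at 55.2 against 118 CPM in DFO. Cox4i2, a cytochrome oxidase subunit, Bex4 and Ryk, a Wnt receptor, had log2 differences from -1.501 (Cox4i2 in DFO) to -1.14 (Ryk in vehicle). All 8 were lower in both libraries. In Pf4-high cells of vehicle, Tpm4 and Enah were above both groups at 97.0 and 61.6 CPM, whereas Cox4i2 at 7.96 CPM was close to the 8.95 CPM of the Cpa3 cells and below the 31.5 CPM of Cpa3-zero cells.

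**Figure D3:**
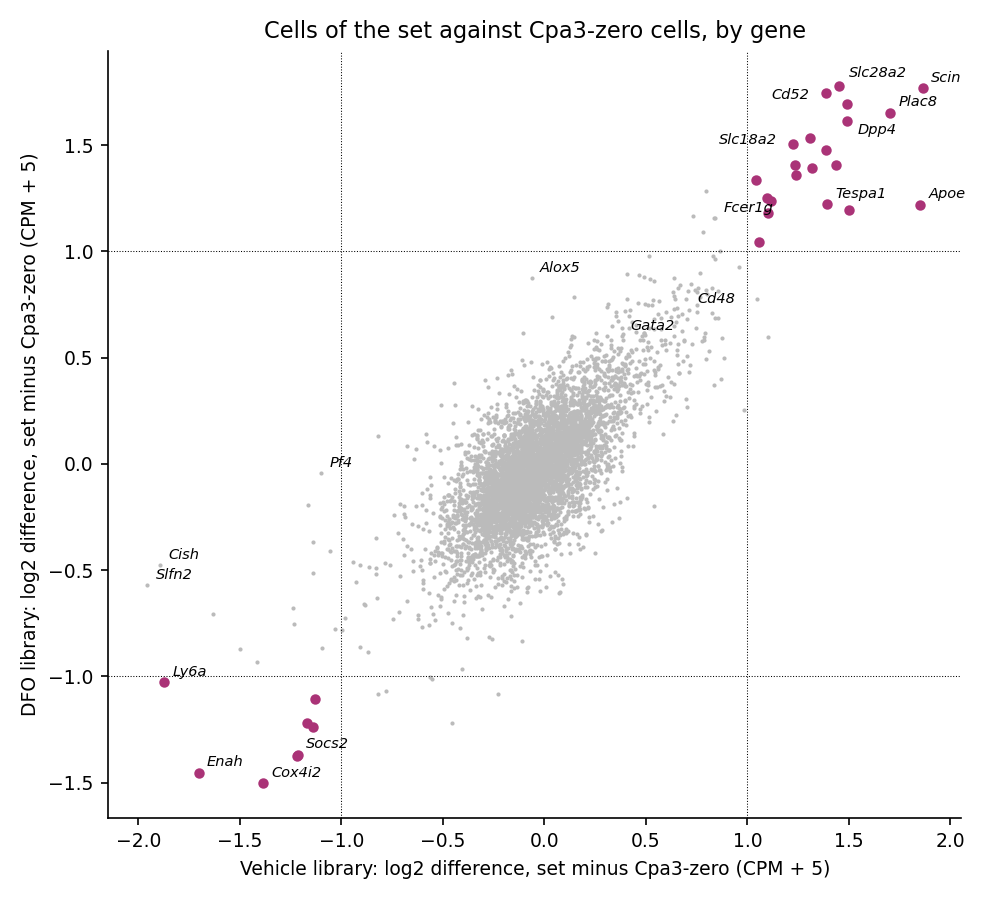
Each point is 1 of the compared genes: log2 difference in CPM + 5 between cells of the set and Cpa3-zero cells in the vehicle library (horizontal) and the DFO library (vertical). Dotted lines mark 2-fold, and the 21 higher and 8 lower genes past it in both libraries are in purple. Scin, Plac8, Slc28a2 and Dpp4 lie at the upper right, Enah and Cox4i2 at the lower left, and Pf4, Cish and Slfn2 are past 2-fold on the low side only in vehicle.

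Of all compared genes 0.52% passed the 2-fold limit, and the mast cell and basophil lists held too few compared genes to set against that share. The marker Il1rl1, below 20 CPM, was not compared. Its log2 differences were 1.15 in vehicle and 1.44 in DFO, and it was called when no minimum was set. Of 17 surface and Fc receptor genes 14 were measured and 4 had the required level, of which 0 were called, with median log2 differences of 0.42 in vehicle and 0.34 in DFO, beside -0.06 and -0.04 over all compared genes. Within it Fcer1g, the signalling chain shared by Fc receptors, was at 288 against 158 CPM and at 255 against 112 CPM, a DFO log2 difference past the fold (1.16) and a vehicle one below it (0.84). Kit, the stem cell factor receptor, was at 49.5 against 34.0 CPM and at 49.4 against 40.02 CPM, and Csf2rb, a cytokine receptor chain, differed by -0.02 and -0.21. Of 7 granule and mediator genes at the required level 1 was called, with medians of 0.49 and 0.46, which became 0.11 and 0 over 19 genes with no minimum level. There Srgn, the core protein of granule proteoglycans, was at 1293 against 885 CPM and at 1083 against 808 CPM, while Cd9 differed by -0.26 and -0.04. The 6 eicosanoid enzymes had medians of 0.02 and 0.10 and 0 calls. Alox5, which makes leukotrienes, was at 29.1 against 30.6 CPM under vehicle and at 33.1 against 15.8 CPM in DFO.

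Of 17 transcription factors of the mast cell, basophil and eosinophil branch 0 were called, with medians of 0.11 and 0.22. Gata2 was at 187 CPM (interval 174 to 202) against 143 CPM under vehicle and at 203 CPM (183 to 226) against 132 CPM in DFO. Gata1 was at 35.5 against 24.6 CPM and at 26.7 against 15.2 CPM. Cebpa, a factor of granulocyte and basophil fate, was at 12.3 against 5.97 CPM and at 12.8 against 5.46 CPM. Stat5a differed by 0.77 and 0.79 and Id1, an inhibitor of helix-loop-helix factors, by -1.41 and -0.93. Spi1, which encodes PU.1, was at 147 against 107 CPM and at 131 against 108 CPM. Gata2, Gata1, Cebpa and Spi1 were thus all higher in the Cpa3 cells of each library by less than 2-fold on the log2 scale used, and Mitf, the mast cell factor, had 6 molecules in vehicle and 3 in DFO. Of 16 genes of Kit and Fc receptor signalling 0 were called higher and 1, Socs2, lower, with medians of -0.06 and 0.11.

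Markers of other lineages varied beside these genes, and their part in the differences was not tested. Of 3 neutrophil-monocyte markers at the required level Ms4a3 was called (40.6 against 16.02 CPM in vehicle, 35.4 against 12.2 CPM in DFO), Lyz2 differed by 0.54 and 0.63, and Prtn3, a granule protease the rule did not use, by -0.07 and -0.50. The 12 measured neutrophil-monocyte markers summed to 295 CPM in Cpa3 cells and 242 CPM in Cpa3-zero cells of vehicle, and to 242 and 225 CPM in DFO. S100a8, a neutrophil gene, was at 0 in the Cpa3 cells of both libraries, where a floor of 3 molecules is 0.839 CPM in vehicle and 1.74 CPM in DFO. The 15 megakaryocyte markers summed to 1048 against 2031 CPM under vehicle and to 919 against 934 CPM in DFO. Pf4 was at 721 against 1550 CPM in vehicle, but at 592 against 611 CPM in DFO.

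The erythroid marker Car2, a carbonic anhydrase, was at 565 against 341 CPM and at 644 against 355 CPM, while Hbb-bt, a globin, was at 292 against 543 CPM and at 318 against 507 CPM. Klf1, the erythroid master factor, was at 3.64 against 3.36 CPM and at 3.49 against 1.81 CPM, and all 19 molecules of Car1 came from 1 vehicle cell. The stem cell marker Procr had 1 molecule in the vehicle Cpa3 cells and 4 in the DFO Cpa3 cells, 0.280 against 5.63 CPM and 2.32 against 6.13 CPM. Vwf, a stem cell and megakaryocyte gene, had 5 molecules and 0 (a floor of 3 molecules is 1.74 CPM), against 7.42 and 4.41 CPM. The progenitor gene Cd48, whose protein the sort selected against before culture, was at 161 against 96.4 CPM and at 173 against 103 CPM, and Cd34 was at 191 against 140 CPM and at 180 against 145 CPM. The single lymphoid marker at the required level was Nkg7 and the called stromal marker Pdgfrb, both given above. Of 38 S phase and 49 G2/M genes 0 were called, with medians of 0.01 and -0.13 and of -0.09 and -0.03, and the G2/M medians turned to 0.25 and 0.26 with the comparison cells reweighted for depth, and to 0.10 and 0.08 in Cpa3 cells with 2 or more Cpa3 molecules. Mki67, a marker of cycling cells, was at 291 against 303 CPM and at 273 against 286 CPM. The 13 mitochondrially encoded genes had medians of 0.02 and -0.05, and median mitochondrial shares were 4.16% and 4.57% in the Cpa3 cells against 3.86% and 4.39%.

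The named genes were compared along increasing Cpa3 content. Cells with Cpa3 below 1.0 that met the other conditions, 418 in vehicle and 329 in DFO, lay between the Cpa3-zero cells and the set for the 15 higher and 8 lower named genes in vehicle, and for 15 and 7 of them in DFO, where Ly6a was the exception. These genes had been called for a difference between the ends. Genes that were not called could break the order, such as Gata1 in vehicle at 24.6, 24.4 and 35.5 CPM and Pf4 in DFO at 611, 631 and 592 CPM. Plac8 stood at 286, 559 and 941 CPM under vehicle and at 317, 523 and 1008 CPM in DFO, from Cpa3-zero cells over those below 1.0 to the set. Scin stood at 12.1, 26.1 and 57.3 CPM and at 8.08, 19.2 and 39.5 CPM, and Socs2 fell along the same order from 45.5 over 33.6 to 16.8 CPM and from 54.4 over 40.6 to 18.01 CPM. Their median depths, close to those of the Cpa3-zero cells, were 27794 and 29278 molecules per cell.

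In cells of the set with 3 or more Cpa3 molecules, 73 in vehicle and 26 in DFO, Scin was at 69.6 and 32.8 CPM and Gata2 at 197 and 222 CPM, with intervals that overlapped those of the whole set. Plac8 was at 929 CPM in vehicle and at 833 CPM (765 to 904) in DFO, the latter below the 1008 CPM (961 to 1057) of the whole set. The 31 and 16 cells with Cpa3 at 1.0 or more that failed the condition on Mpo, Elane and Ctsg also had high Plac8, at 1331 and 1195 CPM, and high Scin, at 112 and 54.3 CPM. Their Fam117a was at 167 and 181 CPM against 97.4 and 113 CPM in the set. In these cells Gata1 was at 16.1 and 2.59 CPM against 35.5 and 26.7 CPM in the set, and Cebpa at 60.5 and 64.7 CPM against 12.3 and 12.8 CPM. Plac8 and Scin were therefore high in Cpa3 cells on both sides of that condition, whereas Gata1 and Cebpa differed between the sides in opposite directions. The 2.59 CPM of Gata1 in DFO lay below the floor of 3 molecules, 7.76 CPM in those 16 cells. Mcpt8 had 16 molecules in the 31 vehicle cells that failed it, and 0 in the 170 that met it. The 84 DFO cells that met it had 1 Mcpt8 molecule. How many cells held the 16 molecules is not given here.

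**Figure D4:**
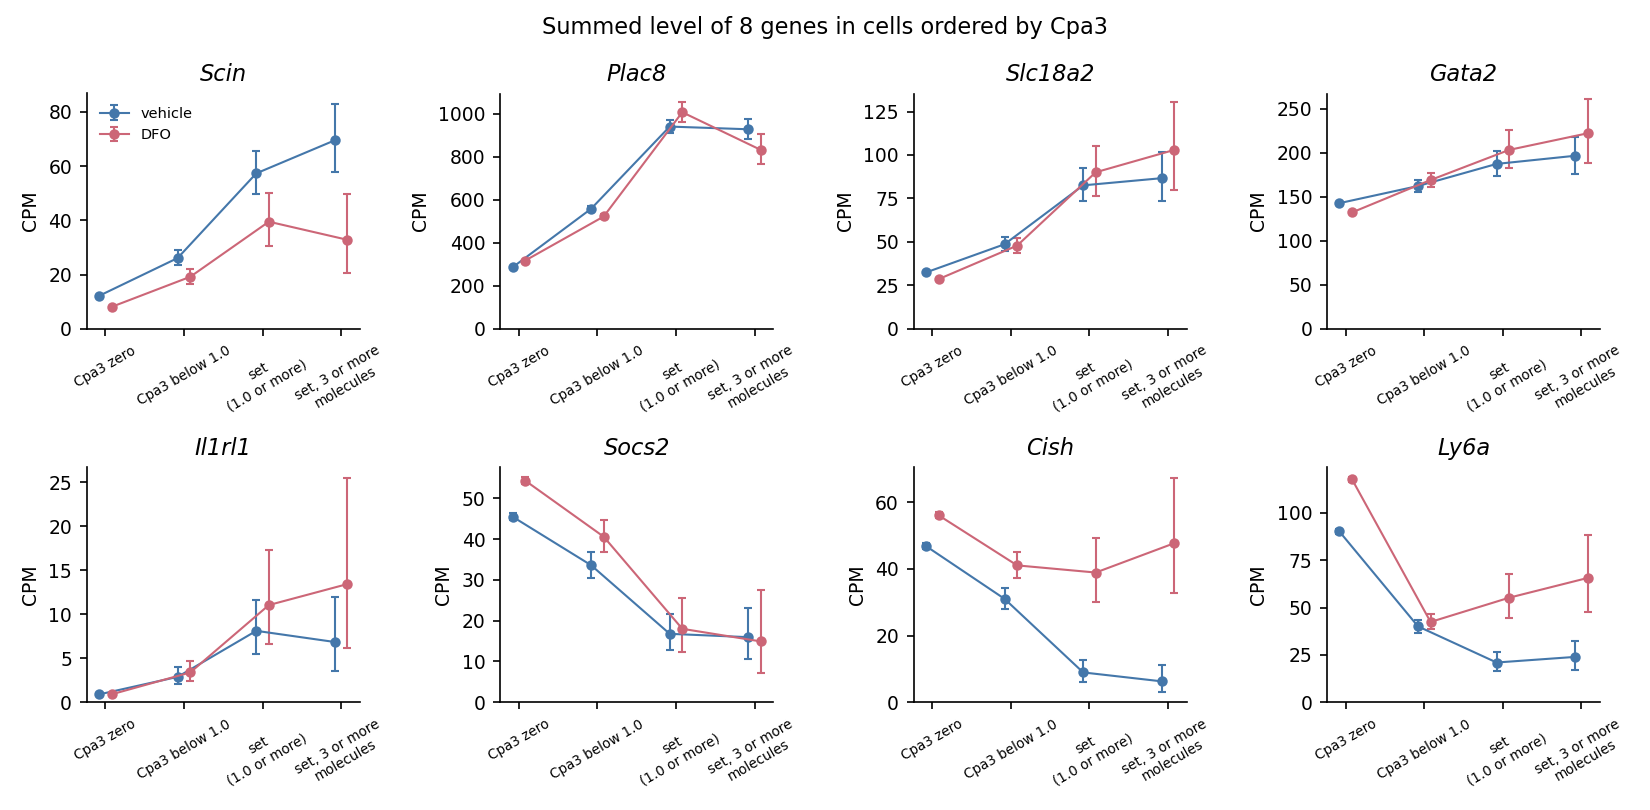
Summed level (CPM, linear axes from 0) of 8 genes in 4 groups of cells ordered by Cpa3, the last a subset of the third, in vehicle (blue) and DFO (red), with exact 95% Poisson bars that cover counting error only. Scin, Plac8, Slc18a2, Gata2 and Il1rl1 step up from Cpa3-zero cells to the set and Socs2 steps down, while Cish and Ly6a in the set differ between the libraries.

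Between DFO and vehicle, the Cpa3 cells differed past 2-fold in 3 of 5705 genes, all higher in DFO (0.0526%), and 0 were lower (0%). In the Cpa3-zero cells 0 of 5591 genes were higher (0%) and 2 lower (0.0358%), namely Pf4 and Treml1. The median over all genes was 0.04 in the Cpa3 cells and 0.02 in the Cpa3-zero cells. The standard deviation over genes was 0.21 and 0.11, with 84 DFO cells behind the first and 8955 behind the second.

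Cish, a feedback inhibitor that cytokine receptors induce through STAT5, had 32 molecules in 24 vehicle cells (14.1%) and 67 molecules in 29 DFO cells (34.5%). This is 8.95 CPM (interval 6.12 to 12.6) in vehicle and 38.9 CPM (30.2 to 49.4) in DFO, a log2 difference of 1.65 and a ratio with an exact interval of 2.81 to 6.85. In Cpa3-zero cells it was 46.9 and 56.1 CPM, a difference of 0.24. The vehicle Cpa3 cells were thus the low group, and the DFO Cpa3 cells lay closer to the Cpa3-zero cells. The Cish difference was past 2-fold under each of 10 settings, from 1.02 to 2.18, but at a minimum of 50 CPM neither Cish nor Slfn2 has the level to be compared.

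Slfn2, a Schlafen protein linked to the growth of blood cells, was at 4.76 CPM (2.77 to 7.61) in vehicle Cpa3 cells and 23.8 CPM (17.1 to 32.3) in DFO Cpa3 cells, a log2 difference of 1.56. It was seen in 7.65% and 28.6% of the cells, and stood at 32.9 and 37.7 CPM in Cpa3-zero cells. Ly6a was at 21.0 CPM (16.5 to 26.3) and 55.2 CPM (44.7 to 67.5), a difference of 1.21, and at 90.2 and 118 CPM in Cpa3-zero cells. A single DFO cell held 35.8% of the 95 Ly6a molecules, and the share of cells with Ly6a was 27.1% in vehicle and 31.0% in DFO. Without the 1 vehicle and 1 DFO cell of the set that carried transcripts of both sexes, the Ly6a difference was 0.71 and no longer past the fold. The Slfn2 difference was past the fold in 8 of the 10 settings and that of Ly6a in 7 of them. All 3 genes were low in vehicle Cpa3 cells relative to vehicle Cpa3-zero cells, by log2 differences of -1.89 (Cish), -1.96 (Slfn2) and -1.87 (Ly6a).

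**Figure D5:**
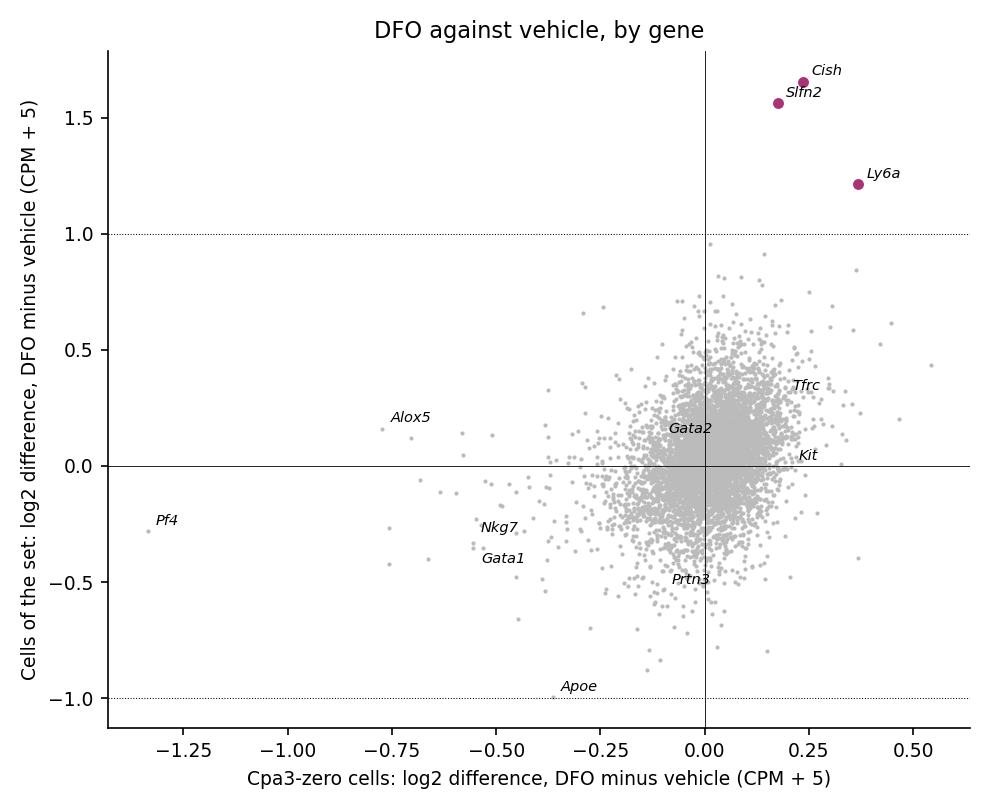
Each point is 1 compared gene: log2 difference in CPM + 5 between DFO and vehicle in Cpa3-zero cells (horizontal) and in cells of the set (vertical). Dotted lines mark 2-fold in the set. Cish, Slfn2 and Ly6a (purple) are past it, and Pf4 lies far left because it was lower with DFO in Cpa3-zero cells by more than in the set.

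Of the 29 genes that set the Cpa3 cells apart from Cpa3-zero cells, Ly6a was past 2-fold between the libraries as well, and Tpm4 was lower in DFO by -0.76. Plac8, Slc18a2, Dpp4, Gata2 and Kit differed between DFO and vehicle Cpa3 cells by 0.10, 0.12, 0.10, 0.11 and -0.00 on the log2 scale. Scin was lower in DFO by -0.49, with an interval of the ratio from 0.516 to 0.911, and by -0.39 in Cpa3-zero cells. Apoe, at 320 molecules in vehicle and 73 in DFO, was lower by -0.995 at the edge of the 2-fold limit, with an interval of the ratio from 0.362 to 0.613. In Cpa3-zero cells Apoe differed by -0.36. Pf4 was lower with DFO by -0.28 in the Cpa3 cells and by -1.34 in Cpa3-zero cells, and the difference between these was not tested.

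Il1rl1 had a DFO to vehicle ratio between 0.721 and 2.51, Gzmb between 0.605 and 1.82 and Hdc between 0.334 and 4.501, so that a 2-fold difference of Il1rl1 upwards, or of Hdc in either direction, lies within counting error. Ms4a2, with 18 and 3 molecules, had an interval of 0.0653 to 1.19. Iron handling genes, of interest because DFO binds iron, held 0 calls among 10, with a median of 0.08 in the Cpa3 cells and 0.05 in Cpa3-zero cells. Among them Tfrc, the transferrin receptor, was at 39.2 CPM under vehicle and 49.4 CPM in DFO Cpa3 cells, and at 58.4 and 67.4 CPM in Cpa3-zero cells. The mast cell lists of surface and granule genes had medians of -0.03 and -0.08 and 0 calls. The genes of Kit and Fc receptor signalling, 15 at the required level, hold Cish, and the stem cell markers, 10 at that level, hold Ly6a, which are 2 of the 3 genes (0.0526% of those compared) already described, with list medians of 0.13 and 0.03.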

How the data were processed

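For each library the authors deposited a table of natural log values per gene symbol and cell. Per the submitters' processing notes, FastQC 0.11.9, Trim Galore 0.6.5, Cell Ranger 3.0.2 and mm10 were used; for the cell filter and the normalization, details are not given in the labels or headers read. Back-transformed, the values of each cell were whole multiples of 1 step within 0.05 for all nonzero values, with a scale of 27408, so molecules were recovered (260938938 in vehicle, 284326017 in DFO, 14366 genes). All deposited cells were used, and 24 barcodes occur in both libraries, 1 of them in a vehicle cell of the set and 0 in a DFO cell of the set.

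For each set and library, CPM were taken from summed molecules, and log2(CPM + 5) was compared among genes at 20 CPM or more. No statistical test is possible with 1 library per group. Summed molecules have exact 95% Poisson intervals, shares exact 95% Clopper-Pearson intervals and ratios exact conditional intervals, which treat molecules as independent and leave out variation between cells and cultures. No doublet caller was run. Cells with 5 or more Xist and 2 or more Y-linked molecules were taken as carrying both sexes and left out in 1 alternative. Other alternatives changed the Cpa3 limit, the condition on Mpo, Elane and Ctsg, the pseudocount, the CPM minimum, the weight of cells, the cell filter, the comparison cells and the depth.

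Named were the 15 highest and 10 lowest genes by the smaller of the 2 library differences, among called genes seen in 10% or more of cells, the 8 highest and 8 lowest between DFO and vehicle, 37 fixed genes, and the extreme members of the 18 lists. Siglecf, Il5ra, S100a8, Cd200r3, Treml1 and the called genes outside the ranking were named after their values were seen. The set, the lists and the named genes were chosen with earlier results of these data known. Tpsb2, Prss34 and Prg2 were not analysed here. Steps were tested on simulated data. Python 3.11.15, numpy 2.4.6, scipy 1.17.1, pandas 2.3.3 and matplotlib 3.10.9 were used, with RefSeq promoters (GRCm38.p6) and GENCODE M21 positions.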

Additional observations from a re-analysis of the deposited data

Results flagged for a closer look

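The median of the megakaryocyte markers had opposite signs in the libraries. Over the 7 at the required level, the median log2 difference between Cpa3 cells and Cpa3-zero cells was -0.44 in vehicle and 0.24 in DFO. The difference between the libraries was not tested. The signs were both negative with a minimum of 50 CPM (-0.96 and -0.27), with no minimum (-0.80 and -0.38) and with 5 or more Cpa3 molecules (-0.63 and -0.09). In Cpa3-zero cells the median of the same list was lower with DFO by -0.58, and in the Cpa3 cells it differed by 0.06.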

How the results depend on the processing

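No paired analysis was possible because the labels give no replicate numbers and each group has 1 library. The DFO share over the vehicle share, 0.437, was 0.611 with a Cpa3 limit of 0.5, 0.592 with cells thinned to 10000 molecules and 0.581 in cells of 10000 to 20000 molecules only. The last was chosen after seeing the data, as were the ranges by depth, the split by sex and the restriction to 2 or more Cpa3 molecules.

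Of genes differing between Cpa3 cells and Cpa3-zero cells, 8 were higher and 0 lower with a pseudocount of 20 CPM, 11 and 3 with a minimum of 50 CPM, 17 lower with no minimum, and 5 lower among cells with 2 or more Cpa3 molecules. With 2 or more molecules 9 of the 29 calls were lost and 1 was gained. The lost genes were Apoe, Bex4, Cox4i2, Csrp2, Emid1, Ms4a3, Pdgfrb, Sh3kbp1 and Socs2. With 5 or more molecules 12 of these calls were lost, Slc18a2, Pdgfrb, Mdga1, Rnase6, Socs2 and Ly6a among them, and 17 were gained. Between DFO and vehicle Cpa3 cells, 5 were higher and 1 lower with a pseudocount of 1 CPM, and 1 was higher with a pseudocount of 20 CPM or a minimum of 50 CPM. With no minimum 5 were higher and 6 lower, and with each cell weighing the same 1 was lower. With 5 or more Cpa3 molecules, which left 19 vehicle and 8 DFO cells, 218 were higher and 314 lower. Ly6a in DFO, lower in the Cpa3 cells, was higher by 0.37 in that setting. The cause of these shifts was not tested. Of the other counts and shares, 37 stayed within the limit set for them. Of the values of single genes 190 moved by more than that limit, 1 reversed and 1645 did not.

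The 84 DFO cells, with 1721037 molecules, set the depth limit: 3 molecules in them are 1.74 CPM.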
